A study of Mus musculus with 15 samples.

Results

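The Hedgehog pathway was examined in bulk RNA-sequencing counts of mouse bone marrow mesenchymal stromal cells (MSCs) with and without the taurine transporter TauT. The 9 genes were taken by symbol, namely *Gli1*, *Gli2*, *Gli3*, *Ptch1*, *Smo*, *Hhip*, *Sufu*, *Gas1* and *Boc*, and each matched 1 of the 56832 genes in the count table. Of these, 8 passed the filter on low counts, and *Hhip* did not. The 15 libraries came from cultured MSCs of 16 week old mice of C57BL/6J background, wild type (WT, TauT+/+) or with a global knockout of *Slc6a6*, the gene that encodes TauT (KO, TauT-/-), with 4 WT and 4 KO libraries labelled male and 3 WT and 4 KO libraries labelled female. The cells of both genotypes were grown from long bone marrow without inducing differentiation, and cells without CD45 were sorted magnetically, the methods naming depletion of CD45, Ter119 and CD31 cells, or flow sorting, as their routes to purified MSCs. Because the knockout is global, the cells developed without TauT in every tissue of the animal. The labels do not tie a library to a mouse, so p-values measure the spread between these libraries.

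Hedgehog ligands are secreted proteins that bind the receptor PTCH1, helped by the co-receptors GAS1, BOC and CDON. Ligand binding relieves the inhibition of the membrane protein SMO by PTCH1, SMO accumulates in the primary cilium, and the GLI transcription factors are released from SUFU and processed into activators rather than repressors. *Gli1*, *Ptch1* and *Hhip* are themselves transcribed in response to the signal and serve as its classic readouts, and in bone the pathway is known for promoting entry of mesenchymal progenitors into the osteoblast lineage.

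*Ptch1* was the only member whose promoter held the consensus GLI binding motif GACCACCCA on either strand, within a window from 250 bases before to 50 bases after the start of the canonical transcript (GRCm39, GENCODE M39). Among all protein-coding promoters, 44 of 21757 (0.202%) held it. The stretch around the match is shown because *Ptch1* is the readout discussed with *Gli1*. It runs 5′ to 3′ on the strand of the gene, with the matched letters, the reverse complement of the motif, in capitals. It lies at chr13:63714204-63714302 (minus strand), with the match 165 bases before the start of the canonical transcript, and overlaps no annotated exon of the gene. That start, at 63714092, is 7320 bases inside the gene's outer bounds, which other transcripts reach, so the stretch is intronic for those. A match describes these letters and is not evidence of binding.
Ptch1: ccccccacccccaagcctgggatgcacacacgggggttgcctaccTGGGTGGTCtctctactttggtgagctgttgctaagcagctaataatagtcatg

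Total counts ranged from 69764291 to 101575071 in male-labelled and from 12761107 to 20781070 in female-labelled libraries, so labelled sex and depth cannot be told apart. Both depths include both genotypes. *Slc6a6* differed by a log2 fold change of −0.97 (SE 0.36, edgeR adjusted p = 0.125), its levels overlapped between genotypes, and the genotype is therefore the one on the label. *Xist* and the Y-linked *Ddx3y* went against the sex label in the libraries labelled WT male 1, KO male 1 and WT female 3. Among 105 pairs of libraries, KO female 1 with KO male 1 and WT female 1 with WT male 1 were the closest, with a spread of log2 ratios between genes of 0.113 and 0.125 where counting alone gives 0.0665 and 0.0695. Values without 1 library of each closest pair are given too for *Boc*, *Gli2* and *Scube2*, a pathway gene outside the members. They are also given for the contrasts under each sex label and the correlation of *Gli1* with *Ptch1*.

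The central question was whether the members differed between KO and WT MSCs. Levels are in CPM, that is counts scaled to a common library size with TMM factors, and a log2 fold change (log2FC, with the standard error, SE, of the fit) below 0 means a lower level in KO. *Boc* fell in KO and was the only 1 of the 8 tested members past the adjusted p threshold of 0.05 in edgeR, where 1.3% of all 17204 tested genes passed and 0.75% passed as lower in KO. The log2FC was below 0 for 7 of the 8 members, with a median of −0.53, against 51.7% of all tested genes and a median of −0.015. An unadjusted p under 0.05 in edgeR was found for 2 members (25.0%), against 23.6% of all tested genes. DESeq2 called *Boc* and *Gli2* as lower, where 6.31% of the genes with an adjusted p were, and voom with quality weights called the same 2 members, where 4.12% were. Fewer cells that express a gene and less RNA per cell cannot be told apart in bulk libraries. The plot of each member's level by library shows these values.

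**Figure D1:**
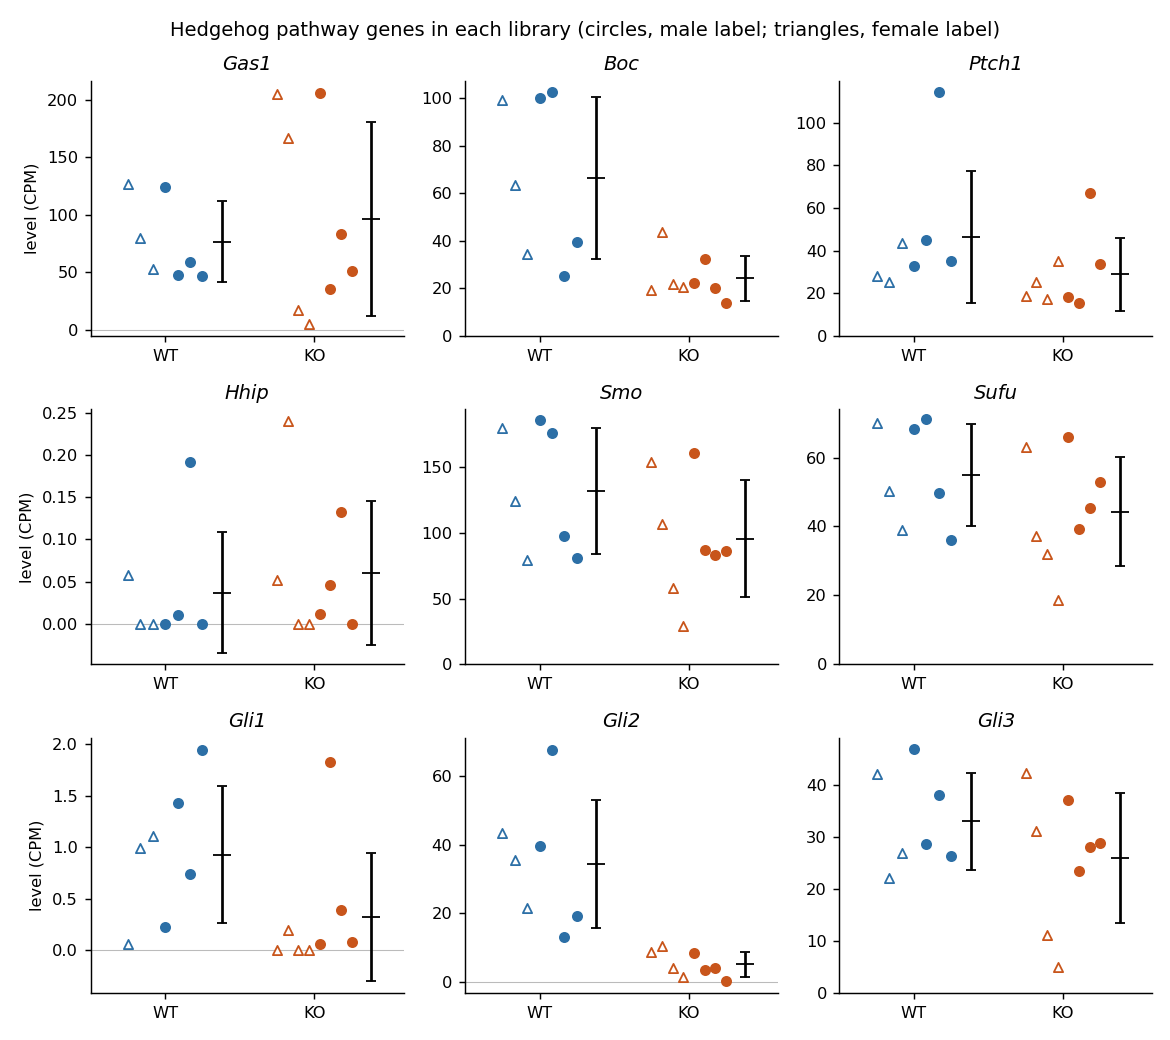
Level in CPM (vertical axis, linear) of each of the 9 members in the 7 WT and 8 KO libraries, with filled circles for the male label and open triangles for the female label. The black mark is the mean and its bar the SD. *Gli2* is the only panel with every KO point below every WT point, and *Boc* overlaps through KO female 2 and KO male 2.

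Among the receptors and co-receptors, *Boc*, which encodes a cell surface protein that binds Hedgehog ligands with PTCH1 (chromosome 16, 44305290 to 44379432, minus strand of GRCm39), had the clearest difference. Its level had a lowest value of 25.2, a median of 63.6 and a highest value of 103 CPM in WT, and 13.9, 21.2 and 43.9 CPM in KO. In 6 of 8 KO libraries it was below every WT library, and KO male 2 and KO female 2 lay within the WT range. The co-receptor gene *Cdon* and the stromal marker *Pdgfrb* also had 6 of 8. The share of all tested genes with such a partial separation was not taken, here or for the genes below. The WT libraries were themselves spread, with WT male 3 and WT male 4 at 25.2 and 39.6 CPM and WT male 1, WT male 2 and WT female 1 between 99.5 and 103 CPM. Of these, WT male 1 and WT female 1 are a closest pair. *Boc* averaged 66.5 ± 34.2 CPM (SD, n = 7) in WT and 24.3 ± 9.44 CPM (SD, n = 8) in KO, a log2FC of −1.46 (SE 0.34, edgeR adjusted p = 0.0483), which is 2.76-fold lower. DESeq2 gave −1.45 (adjusted p = 0.00179).

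The *Boc* call sat at the threshold and did not last under most changes of the library set. It held in 4 of 15 leave-one-out fits, those without KO female 2, KO male 2, WT male 3 or WT male 4 (edgeR adjusted p = 0.0452, 0.0490, 0.0164 and 0.0481), and was lost in the other 11, where the adjusted p reached 0.122 without WT female 1. With 1 library of each closest pair left out it was 0.0925 or 0.122, depending on the library kept, and without the 3 libraries that opposed their sex label it was 0.155. Its log2FC stayed between −1.60 and −1.27 over all 29 alternatives.

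*Gas1*, a membrane-anchored co-receptor (chromosome 13, 60322219 to 60325179, minus strand), showed no difference that exceeded the spread between libraries. Its lowest, median and highest levels were 46.5, 58.7 and 127 CPM in WT and 4.48, 67.1 and 206 CPM in KO. The KO libraries were more dispersed than the WT ones, with 3 above every WT library and 3 below every WT library. Of those above, KO female 1 and KO male 1, at 205 and 206 CPM, are a closest pair and may not be independent. KO differed from WT by a log2FC of 0.32 (SE 0.63, edgeR adjusted p = 0.786), and it was −0.036 without KO male 1 and −0.11 with voom, so no direction can be given.

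*Ptch1*, the ligand receptor and a target of the pathway (chromosome 13, 63656142 to 63721412, minus strand), whose promoter held the GLI motif, ranged from 25.3 to 114 CPM (median 34.9) in WT and from 15.6 to 67.1 CPM (median 22.1) in KO. In 4 of 8 KO libraries it was below every WT library, and in the other 4 it lay within the WT range. The highest level of each genotype was in the male-labelled replicate 3, with 114 CPM in WT male 3 and 67.1 CPM in KO male 3. Its log2FC was −0.60 (SE 0.35, edgeR adjusted p = 0.315), and it was −0.29 without WT male 3. *Hhip*, a membrane protein that binds and sequesters the ligands, is also a target of the pathway (chromosome 8, 80692480 to 80784658, minus strand). It had 0 to 18 counts per library and 44 counts in all, with 7 libraries at 0 and 11 at 3 counts or fewer, and did not pass the filter of the main test. Fits that kept it gave a log2FC of 0.42 (SE 1.09, edgeR adjusted p = 0.870) without a filter and 0.64 (SE 1.45) with DESeq2. With the replicate number as a block it was 0.89 (SE 0.82, edgeR adjusted p = 0.552). With the macrophage covariate described for *Gli2* and *Boc* it was −0.66 (SE 1.31, edgeR adjusted p = 0.889), so on these few counts no direction can be given.

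*Smo*, the signal transducer (chromosome 6, 29735407 to 29762532, plus strand), had a lowest, median and highest level of 78.9, 124 and 186 CPM in WT and 29.5, 86.6 and 160 CPM in KO. The genotypes overlapped in 6 of 8 KO libraries, and the log2FC was −0.46 (SE 0.32, edgeR adjusted p = 0.403). *Sufu*, the cytoplasmic inhibitor of the GLI proteins (chromosome 19, 46385324 to 46477243, plus strand), had 36.1, 50.3 and 71.3 CPM in WT and 18.7, 42.4 and 65.8 CPM in KO. It also overlapped in 6 of 8 KO libraries, with a log2FC of −0.31 (SE 0.24, edgeR adjusted p = 0.455), which was −0.17 without WT female 1 and −0.09 with the macrophage covariate. Neither difference could be separated from the spread between libraries. *Smo* shares 365 exonic bases with the pseudogene *Gm13717* on the same strand, so part of its counts is uncertain.

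*Gli2*, which encodes the main GLI activator (chromosome 1, 118761858 to 118982598, minus strand), had the largest difference of the 8 tested members by log2FC. Its lowest, median and highest levels were 12.9, 35.6 and 67.9 CPM in WT and 0.0569, 3.87 and 10.5 CPM in KO. Every KO library was below every WT library, which held for 0.436% of all tested genes (75 of 17204) and for no other member. The highest KO level was in KO female 2 and the lowest WT level in WT male 3. KO male 4 had 5 counts among its 85630042, whereas WT male 2 had 6103.

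*Gli2* averaged 34.3 ± 18.7 CPM (SD, n = 7) in WT and 5.02 ± 3.75 CPM (SD, n = 8) in KO, a log2FC of −2.83 (SE 0.68), which is 7.13-fold lower. The edgeR adjusted p was 0.0561, which missed the threshold, while DESeq2 gave −2.83 with an adjusted p of 0.000862 and voom gave −3.06 with an adjusted p of 0.0251. In edgeR it passed without KO male 4 (adjusted p = 0.0470), without WT male 3 (adjusted p = 0.0282) and without the sex term (adjusted p = 0.0431), and it did not pass in the other 13 leave-one-out fits. With 1 library of each closest pair left out, the log2FC was −3.08 (edgeR adjusted p = 0.0864) or −2.89 (edgeR adjusted p = 0.111). The direction held in all 28 alternatives in which *Gli2* was tested, between −3.27 and −2.20.

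*Gli3*, which encodes the main GLI repressor (chromosome 13, 15637809 to 15904611, plus strand), did not show this pattern. Its lowest, median and highest levels were 22.1, 28.6 and 47.0 CPM in WT and 4.95, 28.5 and 42.4 CPM in KO, and 6 of 8 KO libraries lay within the WT range. With a log2FC of −0.34 (SE 0.34, edgeR adjusted p = 0.573) it did not pass, and leaving out 1 library moved the value to −0.19 without KO female 4, which had the lowest level, or to −0.52 without KO female 1. The ratio of *Gli2* to *Gli3* within a library, chosen after the values were seen and given as a description, ranged from 0.337 to 2.37 (median 0.843) in WT and from 0.00197 to 0.346 (median 0.215) in KO. The ranges met at KO female 3 with 0.346 and WT male 3 with 0.337. The ratio of *Boc* to its relative *Cdon*, chosen in the same way, ranged from 0.372 to 1.26 (median 1.02) in WT and from 0.343 to 2.72 (median 0.895) in KO, and did not separate the genotypes.

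*Gli1*, the target-gene readout and an activator itself (chromosome 10, 127165751 to 127177865, minus strand), was close to the limit of detection. It had 0.0575, 0.994 and 1.95 CPM as lowest, median and highest values in WT and 0, 0.0705 and 1.83 CPM in KO. In KO it had 0 counts in KO female 1, KO female 3 and KO female 4, and 159 of its 213 counts were in KO male 2, which lay near the highest WT library. The log2FC was −1.86 (SE 0.94, edgeR adjusted p = 0.243), and without KO male 2 it was −3.004 (edgeR adjusted p = 0.0690). *Gli1* shares 103 exonic bases with *Arhgap9* and 265 with the long noncoding RNA *Gm47200*, both on the opposite strand. The authors counted by strand, but whether the library kit keeps strand is not given in the sources used here, so the counts of this low gene are uncertain. The same limit applies to *Gas1* and *Gli3*, which share 589 and 513 exonic bases with *Gm48488* and *Gm6556* on the opposite strand. *Boc*, *Gli2* and *Hhip* share fewer with genes on the opposite strand. The plot of fold changes sets the members side by side under 4 fits.

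**Figure D2:**
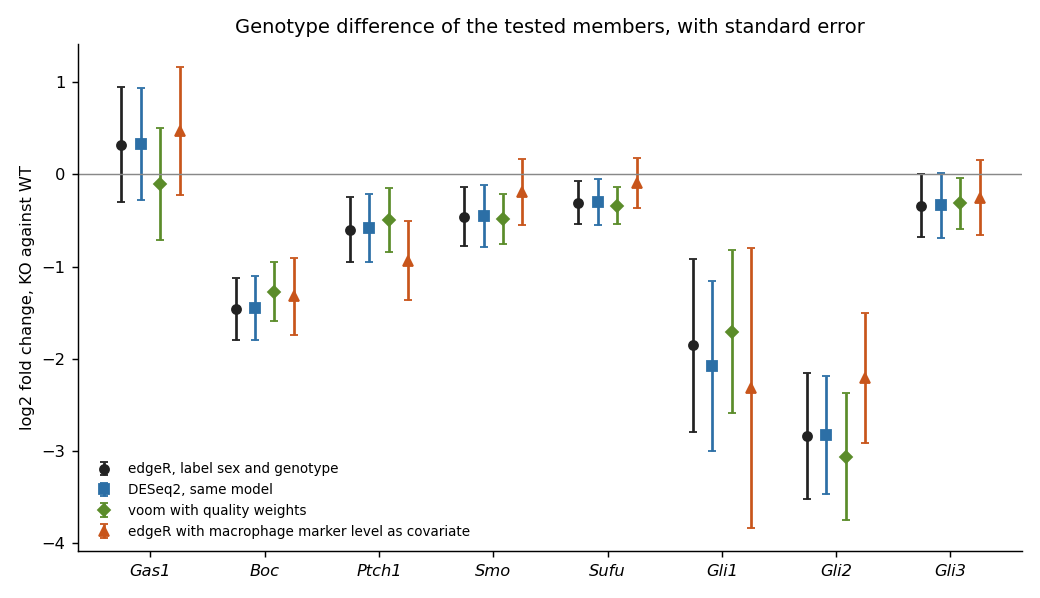
Log2 fold change of KO against WT (vertical axis) for the 8 tested members under edgeR, DESeq2, voom with quality weights and edgeR with the macrophage marker level as a covariate. Bars are the standard error of each fit. *Gli1*, *Gli2* and *Boc* lie below 0 by over 1 on this scale in all 4 fits, and *Gas1* lies on both sides of 0. The bars of *Gli1* are the longest in each fit.

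The cultures held markers of other cell types, and the macrophage list, which is the longest, had the most markers called between the genotypes. Of the 24 macrophage markers, 24 were tested, 23 had a log2FC above 0, 2 passed the edgeR threshold as higher in KO, where 0.546% of all tested genes did, and none was at 0 in any library. DESeq2 called 11 of them as higher, where 5.28% of genes with an adjusted p were, and 17 had an unadjusted p under 0.05 in edgeR, where 23.6% of all tested genes did. Their summed level ranged from 1630 to 11160 CPM in WT and from 8041 to 27799 CPM in KO. *Ptprc*, which encodes the depleted surface protein CD45, ranged from 27.9 to 179 CPM in WT and from 114 to 370 CPM in KO, with a log2FC of 0.91 (SE 0.34, edgeR adjusted p = 0.129). *Pecam1*, which encodes CD31, stayed at or below 6.46 CPM. The summed level of 10 endothelial markers ranged from 8.78 to 20.3 CPM in WT and from 12.3 to 111 CPM in KO, none of the 7 tested passed in edgeR (2 had an unadjusted p under 0.05), and DESeq2 called *Kdr* as higher (edgeR log2FC 2.14, SE 0.52, adjusted p = 0.0561). Of 15 stromal markers, 11 had a log2FC below 0 and 4 above, and none passed in edgeR. Their median log2FC was −0.55, close to the −0.53 of the members. Of the 5 (33.3%) with an unadjusted p under the threshold, 4 were lower in KO and the other was higher. DESeq2 called 2 as lower (13.3%, against 6.31% of genes with an adjusted p). *Pdgfra* was at −1.45 (SE 0.49, edgeR adjusted p = 0.108) and *Pdgfrb* at −0.59 (SE 0.20, edgeR adjusted p = 0.108). The summed stromal level ranged from 28511 to 47918 CPM in WT and from 6382 to 40857 CPM in KO, and its part in the results for the members was not tested. All 6 adipocyte markers had a log2FC below 0, with a median of −1.28, none passed in edgeR, where 3 had an unadjusted p under 0.05, and DESeq2 called *Adipoq*, *Pparg* and *Cebpa* as lower. Their summed level ranged from 276 to 3759 CPM in WT and from 191 to 1539 CPM in KO. Of 5 tested osteoblast markers 4 were below 0, none passed in edgeR, where 2 had an unadjusted p under 0.05, and DESeq2 called *Spp1* as higher. The part of these markers was not tested either.

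The members were compared with the macrophage level library by library. WT male 2 had the lowest macrophage sum, 1630 CPM, and the highest *Gli2* and *Boc* levels, 67.9 and 103 CPM. KO female 4 had the highest macrophage sum and the lowest stromal sum, and it also had the lowest level of 4 members, *Gli3*, *Smo*, *Sufu* and *Gas1*. KO male 1 and KO female 1 had macrophage sums of 8041 and 8803 CPM, below those of 5 WT libraries, and their *Gli2* levels were 8.37 and 8.70 CPM, below the 12.9 to 43.4 CPM of those WT libraries. These 2 KO libraries are 1 of the closest pairs, and the 5 WT libraries include the other, WT male 1 with WT female 1. The stromal sums of KO male 1 and KO female 1 were 28590 and 27386 CPM, against 28511 to 47918 CPM in WT. The part of the stromal level in this contrast was not tested. With the mean macrophage level as a covariate, the log2FC was −2.20 (SE 0.71, edgeR adjusted p = 0.295) for *Gli2* and −1.32 (SE 0.42, edgeR adjusted p = 0.290) for *Boc*, and this fit called 0 of all genes and 0 members, with 2076 genes at an unadjusted p under 0.05.

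**Figure D3:**
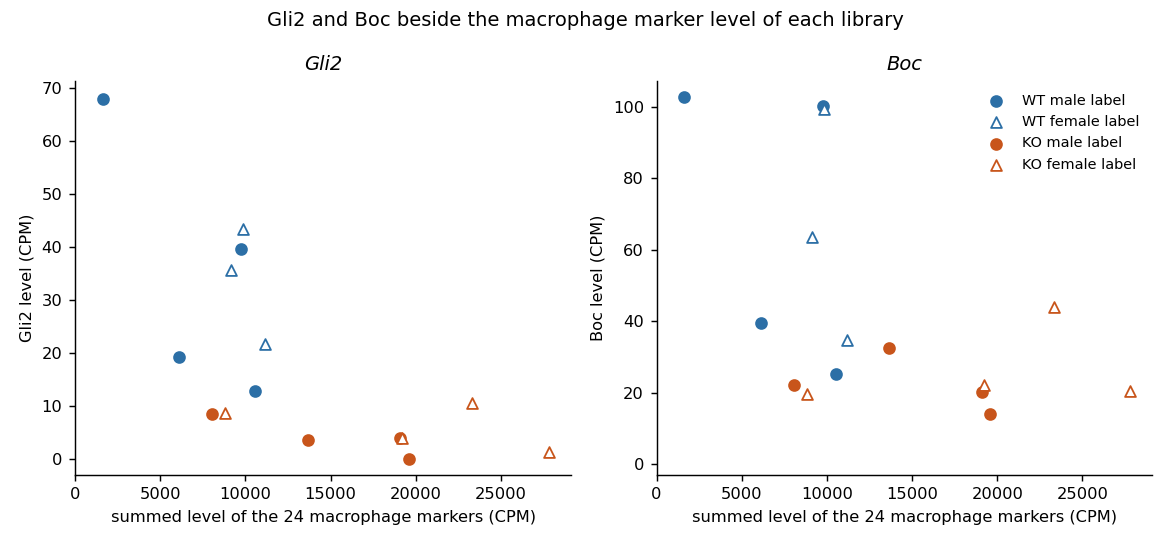
*Gli2* (left) and *Boc* (right) in CPM against the summed CPM of the 24 macrophage markers, 1 point per library, with blue for WT, orange for KO, circles for the male label and triangles for the female label. Where the macrophage sums of the genotypes overlap, the 2 KO libraries, at 8041 and 8803 CPM, have lower *Gli2* levels than the 5 WT libraries to their right. These KO libraries are a closest pair, and the WT libraries include the other such pair.

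To compare genes with each other, levels were divided by the length of their merged exons. *Gas1* had the highest level in WT, 25.9 ± 11.9 CPM per kilobase (SD, n = 7), followed by *Smo* with 14.9 ± 5.42, *Boc* with 13.7 ± 7.02 and *Sufu* with 5.95 ± 1.61 CPM per kilobase. *Gli2* with 4.26 ± 2.32, *Gli3* with 3.31 ± 0.93 and *Ptch1* with 3.14 ± 2.10 CPM per kilobase did not separate beyond their spread, since *Gli2* exceeded *Gli3* in 4 of 7 WT libraries and *Gli3* exceeded *Ptch1* in 4 of 7. *Gli1* was at 0.18 ± 0.13 CPM per kilobase, below *Ptch1* in 7 of 7 WT libraries, and *Hhip* was at 0.0035 ± 0.0066. In KO, *Gli2* averaged 0.62 ± 0.47 CPM per kilobase (SD, n = 8) and was below *Gli3* in all 8 libraries. The order of *Boc* and *Sufu*, with *Boc* higher in 6 of 7 WT libraries, was divided in KO, where *Boc* was higher in 4 of 8. With the longest transcript in place of merged exons, *Ptch1* averaged 4.45 and *Gli3* 3.67 CPM per kilobase in WT, which exchanges their places, while *Smo* and *Sufu* averaged 24.7 and 11.9 CPM per kilobase and kept their order.

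**Figure D4:**
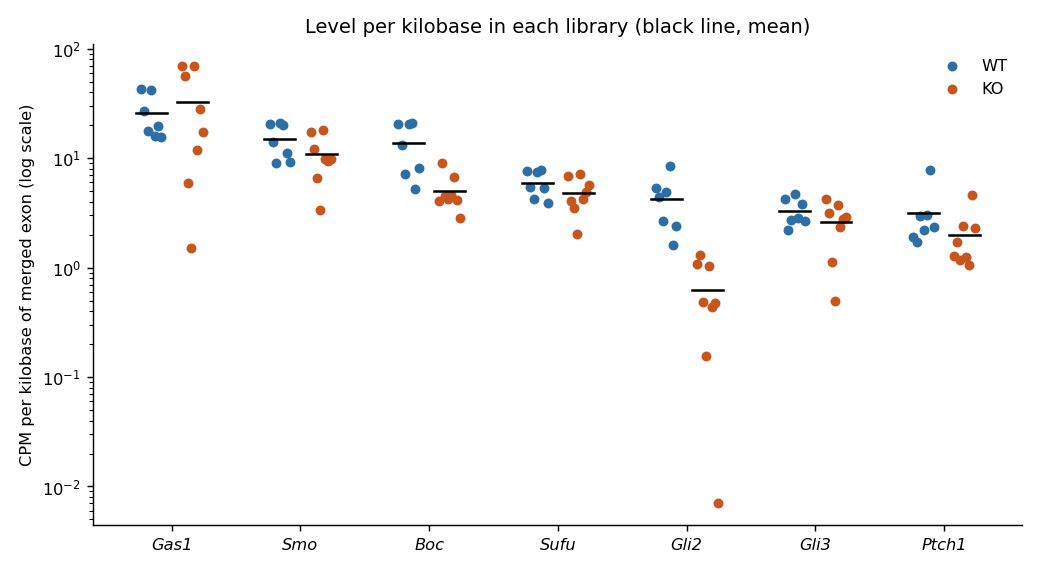
Level per kilobase of merged exon (vertical axis, log scale) of the 7 members above 1 CPM per kilobase in WT, with 1 point per library, blue for WT and orange for KO, and a black line at the mean. *Gli2* sits beside *Gli3* and *Ptch1* in WT and below both on average in KO, with KO male 4 far under the rest.

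The study used both sexes, and the genotype difference was also taken under each sex label. Under the male label *Gli2* had a log2FC of −3.16 (SE 0.97) and *Boc* of −1.59 (SE 0.48). Under the female label they had −2.43 (SE 0.99) and −1.27 (SE 0.50). Without the female-labelled library of each closest pair, the female-label values were −2.40 (SE 1.24) for *Gli2* and −0.72 (SE 0.59) for *Boc*. Without the male-labelled one, the male-label values were −3.76 (SE 1.17) and −1.34 (SE 0.56). edgeR called 0 of the 8 members under either label, as it did for 0.0% of the 18263 genes tested in this fit, with an unadjusted p under 0.05 for 2 members under the male label (*Gli2* and *Boc*) and 3 under the female label (*Gli1*, *Gli2* and *Boc*), where 8.7% and 14.8% of all genes had one. Without the female-labelled library of each closest pair, *Gli1* alone had one under the female label. *Gli1* was at −0.87 (SE 1.11) under the male and −3.69 (SE 1.53) under the female label. The difference between the labels passed for 0 members and 0.0% of genes in edgeR, with an adjusted p of 1.00 for all 8 and 0 members at an unadjusted p under 0.05, and DESeq2 also called 0 members.

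The levels of the members were also compared between the labels irrespective of genotype. None of the 8 passed in edgeR, where 0.0233% of all tested genes did, and none had an unadjusted p under 0.05. The largest estimates were those of *Gli1*, with a mean of 0.836 CPM under the male and 0.336 CPM under the female label, and *Ptch1*, with 45.2 and 27.7 CPM (edgeR adjusted p = 0.880 for both). Depth differed in the same way, and this comparison was not refitted without the libraries that opposed their sex label.

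Other genes of the pathway were taken from lists of ligand handling, reception, regulation, the primary cilium and targets. Of 95 such genes 88 were tested, 1 fell in KO in edgeR, and none rose, while 66 had a log2FC below 0 with a median of −0.23. DESeq2 called 9 as lower (10.2%, against 6.31% of all genes with an adjusted p) and none as higher, and 24 (27.3%) had an unadjusted p under 0.05 in edgeR, against 23.6% of all tested genes. The gene called by edgeR was *Scube2*, which encodes a secreted protein that helps release the lipid-modified ligand from the cell that makes it. It had 0.255, 0.667 and 2.68 CPM as lowest, median and highest values in WT and 0, 0.0628 and 0.287 CPM in KO, so that 7 of 8 KO libraries were below every WT library. The log2FC was −3.26 (SE 0.74, edgeR adjusted p = 0.0467), with 383 counts in all WT and 64 in all KO libraries. Of the WT counts, 199 were in WT male 4. The call held in 3 of 15 leave-one-out fits, those without KO male 2, WT male 1 or WT male 3 (edgeR adjusted p = 0.0472, 0.0493 and 0.0197). Without WT male 4 the edgeR adjusted p was 0.0759. With 1 library of each closest pair left out it was 0.0783 (female-labelled kept) or 0.106 (male-labelled kept).

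Of the ligands themselves, *Shh* had 2 counts, *Ihh* 50 and *Dhh* 169 in the 15 libraries together, and none was tested. Of the 6 tested genes for ligand production and release, 5 had a log2FC below 0 with a median of −0.52. Both tested reception genes, *Cdon* and *Lrp2*, were below 0. *Cdon*, a co-receptor related to *Boc*, averaged 68.7 ± 19.1 CPM (SD, n = 7) in WT and 32.3 ± 18.1 CPM (SD, n = 8) in KO, with 6 of 8 KO libraries below every WT library and a log2FC of −1.07 (SE 0.36, edgeR adjusted p = 0.105, DESeq2 adjusted p = 0.0390). *Lrp2*, an endocytic receptor that also binds the ligand, was at −0.72 (SE 0.87, edgeR adjusted p = 0.648).

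Among 27 regulators of SMO, SUFU and GLI, 17 had a log2FC below 0 and 10 above, with a median of −0.10, and none passed in edgeR. An unadjusted p under 0.05 in edgeR was found for 8 (29.6%, against 23.6% of all tested genes), 6 of them lower in KO and the rest higher. DESeq2 called 2 as lower (7.41%, against 6.31% of all genes with an adjusted p). *Kif7*, the kinesin that organizes the GLI compartment at the tip of the cilium, was at −0.64 (SE 0.20, edgeR adjusted p = 0.0848), and *Gpr161*, a ciliary receptor that restrains the pathway, was at −0.60 (SE 0.24, edgeR adjusted p = 0.144). *Evc* and *Evc2*, which act next to SMO at the base of the cilium, were at −0.70 (SE 0.27) and −0.35 (SE 0.21). Of 35 primary cilium genes 30 were below 0, with a median of −0.24, and none passed in edgeR. There 12 (34.3%) had an unadjusted p under 0.05, 11 of them lower in KO, and DESeq2 called 4 as lower (11.4%). Of 18 tested target genes outside the members 12 were below 0, with a median of −0.29, and none passed in edgeR, where 2 (11.1%) had an unadjusted p under 0.05. DESeq2 called *Pdgfra* as lower (5.56% of these genes), which is also 1 of the stromal markers.

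*Gli1* and *Ptch1*, both targets of the pathway, were compared across libraries. Over the 15 libraries the log2 CPM values had a Pearson r of 0.36 (permutation p = 0.192) and a Spearman rho of 0.30 (permutation p = 0.267). Within the male label r was 0.13 (n = 8, exact permutation p = 0.748) and within the female label 0.52 (n = 7, exact permutation p = 0.240). Without WT male 4 and KO male 2, the libraries farthest from the median of *Gli1*, r was 0.60 (permutation p = 0.0253). With 1 library of each closest pair left out it was 0.32 or 0.27 (n = 13, permutation p = 0.291 and 0.372). This was the only pair of members so tested, because *Hhip* had too few counts. The genes whose log2 CPM most resembled that of *Gli1* by Spearman rho over the 15 libraries were *Brms1l* (0.95), *Mxra7* (0.94), *Pdzd11* (0.94), *A030001D20Rik* (0.93) and *Abhd8* (0.92), and for *Ptch1* they were *Meak7* (0.87), *Gtf2a1* (0.81), *Mb21d2* (0.80), *Epn2* (0.79) and *H1f4* (0.77). These libraries differ in genotype, labelled sex and depth, none of which was adjusted for here, and the likeness is a description.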

How the data were processed

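RNA-sequencing was performed on 15 libraries of cultured MSCs. The authors filtered reads with fastp 0.23.1, mapped them with STAR 2.7.9a to GRCm39 with GENCODE M31 and counted them per gene and by strand with featureCounts (Subread 2.0.1), and the deposited values are whole-number counts without normalization. The test was edgeR 4.0.16 in R 4.3.3 (TMM, filterByExpr, quasi-likelihood test, labelled sex and genotype as terms) over 17204 genes, with Benjamini-Hochberg adjustment over all of them and a threshold of 0.05. DESeq2 1.42.0 and voom with quality weights (limma 3.58.1) were alternatives, with other normalizations, filters, covariates and library sets. Log2 CPM used a prior count of 2. The correlation used 2-sided permutation tests, exact below 10 libraries, in Python 3.11.15. Positions and exon lengths come from GENCODE M39. Named genes are the members, the targeted and sex-linked genes, the main ligands, receptors and cilium regulators, every listed gene past the threshold, the 5 genes most like *Gli1* and *Ptch1* (mean 1 CPM or more), and 4 marker genes, except 1 gene of this rule, which is not reported here and was left out of the lists. The members and lists were chosen with earlier results of these data known.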

Additional observations from a re-analysis of the deposited data

Results flagged for a closer look

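Within groups of 4 libraries, the gap between the most extreme library and its neighbor was divided by the range of the group and set against Dixon's critical value for a group of that size. Of 71 such groups over the members and the named pathway and marker genes, 16 exceeded it. For independent, normally distributed values the critical value flags about 1 in 20, or 3.55 groups. CPM values with few counts need not meet this, and 1 count among libraries at 0 gives a ratio of 1.00. The 16 are therefore not read as an excess over chance. Among the members, *Gli1* was high in KO female 2 (1.00, with the other 3 libraries at 0), *Hhip* in WT male 3 (0.94), *Smo* in KO male 1 (0.95), *Boc* in KO female 2 (0.90), *Ptch1* in WT male 3 (0.85) and *Gas1* in WT male 1 (0.84). The *Boc* level of KO female 2 is 1 of the 2 that lay within the WT range, and the *Ptch1* level of WT male 3 is the highest of all libraries.

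Among the other pathway genes, the ligands were flagged on few counts, with *Shh* high in KO male 1 (1.00) and in WT male 2 (1.00), *Ihh* in KO male 3 (0.94), and *Dhh* in KO female 1 (1.00) and in KO male 3 (0.97). *Scube2* was high in WT male 4 (0.83), and *Lrp2* was low in KO male 2 (0.91). The endothelial marker *Pecam1* was high in KO female 4 (0.98), KO male 3 (0.96) and WT male 3 (0.91).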

How the results depend on the processing

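Every log2 fold change of the 8 tested members kept its direction under all alternatives run, apart from *Gas1*, which was −0.11 with voom and −0.036 (without KO male 1) to 0.53 (without WT male 1) in leave-one-out fits. With the macrophage covariate *Ptch1* was −0.94, *Smo* −0.19 and *Sufu* −0.09. edgeR called 1 member, 1 other pathway gene and 223 genes in all. For members, other pathway genes and all genes in turn, the counts were 2, 9 and 2091 with DESeq2, 2, 5 and 1319 with voom, and 0, 0 and 74 without a filter on low counts. Without the sex term they were 2 members and 471 genes, and with at least 10 counts in every library 0 other pathway genes, *Gli2* and *Scube2* being untested there. They were 0, 0 and 0 with the male label alone (1278 genes at an unadjusted p under 0.05), the female label alone (2014), the macrophage covariate (2076) and without the 3 libraries opposing their sex label (3115). With 1 library of each closest pair left out they were 0, 0 and 2 (female-labelled kept) or 0, 0 and 7 (male-labelled kept). Leaving out 1 library gave 0 to 2 members, 0 to 7 other pathway genes and 12 (without WT female 2) to 1255 genes (without WT male 3). The cause was not tested.

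With the replicate number as a block the counts were 0, 0 and 132, with *Boc* at −1.29, *Scube2* at −2.92 and *Ptch1* at −0.70 (edgeR adjusted p = 0.0628, 0.100 and 0.0949). Deviations of same-numbered libraries correlated at 0.19 to 0.62 under the male label, where 4 of 4 numbers matched best, and at −0.04 to 0.28 under the female label, where 1 of 3 did. As not every pair exceeded 0.1, the numbers were not taken as pairs. After the 2 closest pairs, KO male 3 with WT male 3 came next, with a spread of log2 ratios of 0.288 where counting alone gives 0.0388. The block lowered the SE of *Smo* from 0.32 to 0.13 and that of *Ptch1* from 0.35 to 0.20, so the unpaired spread may be too wide for these members. *Slc6a6* passed in voom alone (−1.27, adjusted p = 0.0246). The correlation of *Gli1* with *Ptch1* passed in 1 of 6 alternatives, at r = 0.60 without the 2 libraries farthest from the median of *Gli1*, and the correlations with *Hhip* were not run. *Gli1* and *Hhip* are limited by depth, since 3 counts are 0.0305 to 0.229 CPM.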
